A study of Sus scrofa with 4 samples.

Results

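Longissimus dorsi (LD) muscle of Laiwu pigs at 120 d of age was compared with the same muscle at 400 d. The members were chosen by age label alone: the 3 libraries labelled 120 d and the 3 labelled 400 d, 6 of the 12 libraries in the series. Every animal in both groups was a castrated male of the pure Laiwu breed with the genotype wild type, kept under similar feeding and housing, and no group received a treatment. The other 6 libraries came from pigs of 60 d and 240 d and are used here for context only. Each library came from 1 pig sampled once, so the ages were compared between different pigs, and age cannot be told apart from anything else that differed between the sampling occasions. All values describe whole muscle, in which fewer cells of a type and less RNA per cell cannot be told apart.

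LD is a predominantly fast, glycolytic muscle of the back, and Laiwu is a Chinese breed known for heavy deposition of intramuscular fat. Young muscle grows by adding nuclei from satellite cells, whose differentiation is driven by the MYOD1 family of transcription factors, and by laying down the collagen network that surrounds the fibres. In adult muscle, size depends on the balance between protein synthesis and breakdown by the ubiquitin-proteasome and autophagy systems, and fuel use shifts between glucose and fatty acids with nutritional and hormonal state.

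Total counts lay between 9713813 and 11042758 at 120 d and between 11250568 and 13325327 at 400 d, where a count is the number of fragments assigned to a gene. Correlations of log2 CPM (counts scaled to library size) were 0.9404 to 0.9688 within 120 d, 0.9542 to 0.9661 within 400 d and 0.8568 to 0.9408 between the ages. The first principal component, 56% of the variance, separated the ages, with replicate 2 of 120 d (74.5) and replicate 2 of 400 d (-77.5) farthest out, against 32.5 to 35.0 and -31.9 to -32.6 for the others. As a check of the tissue, DES (desmin) stood at 1999.7 to 4262.9 FPKM (fragment counts divided by transcript length and by sequencing depth) in the 6 libraries, and the glycolytic enzymes GAPDH and ENO3 were at 28633.1 FPKM or more and 7459.7 FPKM or more in each of them. ACTA1, the main actin of skeletal muscle, was listed at 0 counts in 4 of the 6 libraries and at 893060 and 916544 counts in 120 d replicate 2 and 400 d replicate 3, 8.09% and 7.36% of their totals, so no level of ACTA1 is reported.

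The ages were taken from the sample labels, and a list of differentially expressed genes distributed with the article carries FPKM under other ages. Values headed 400 d in that list differed from the mean FPKM of the libraries labelled 120 d by a median absolute log2 difference of 0.0199 over 243 genes. Values headed 60 d differed from the libraries labelled 400 d by 0.0198 over 202 genes. With like-named ages the median difference was 1.1274 for 120 d (998 genes) and 0.9061 for 400 d (243 genes). By that list the present comparison would be one of 400 d with 60 d muscle, and the sign of every change below would turn. The article's main text carries other ages as well. FPKM printed there for PDK4 and EGR1 at 120 d and 240 d lie near the means of the libraries labelled 240 d and 60 d. Those means were 732.4 and 97.6 FPKM for PDK4 and 11.9 and 112.6 FPKM for EGR1. By qRT-PCR the article reports EGR1 and FASN higher at 240 d than at 120 d. Under the sample labels the 120 d and 240 d means were 43.9 and 11.9 FPKM for EGR1 and 12.9 and 12.6 FPKM for FASN. In the article's own summary of sequencing the largest read total belongs to the first library of 400 d. Among the libraries here the largest total count, 13325327, belongs to replicate 1 of those labelled 400 d. The sample labels are used throughout.

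From 120 d to 400 d, 10 of 16 tested myogenic and satellite cell genes and 13 of 21 matrix genes fell, and 5 of 13 genes of protein breakdown and 6 of 21 of fatty acid use rose. Features averaging 10 counts or more at 1 of the ages numbered 12989, and of these 2025 (15.6%) differed at an adjusted p of at most 0.05 by the quasi-likelihood test of edgeR. At 400 d 888 features (6.84%) were higher and 1137 (8.75%) were lower, and "called" below refers to these features. The median fold was 1.81 among the features that rose (interquartile range 1.63 to 2.1) and 2.73 among those that fell (2.02 to 3.99). More than 4-fold changes were seen for 30 features that rose and 282 that fell. Calls scaled by library totals only numbered 553 higher and 1188 lower, so that 31.8% of calls were higher in place of 43.9%, with a shift of -0.10 in the median log2 change of all features. Leaving out 1 library left between 109 and 410 features higher and between 174 and 598 lower, fewest without 400 d replicate 3, and 212 features (84 higher, 128 lower) were called in all 6 such fits. With both outlying libraries left out, 277 features were higher and 510 lower.

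Among 23 gene lists, 13 held only members that fell, 2 only members that rose, 4 held both and 4 none. The lists were drawn up with earlier results of these data known, and each is described by its count and its median. The counts stand beside shares of 6.84% called higher and 8.75% called lower over all tested features. The medians stand beside a median of 0.003 for all tested features.

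**Figure D1:**
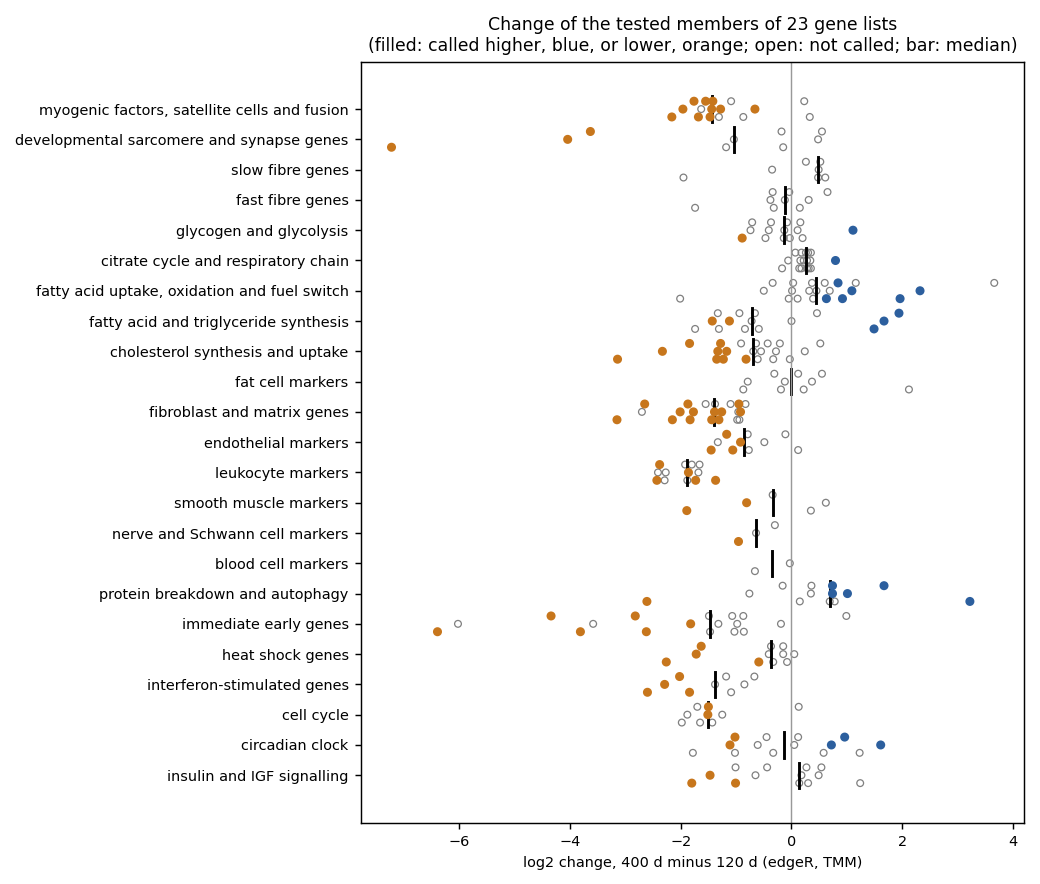
Each point is the log2 change of 1 tested gene, 400 d minus 120 d, grouped by gene list. Filled points passed an adjusted p of 0.05 (blue higher, orange lower at 400 d), open points did not, and bars mark list medians, which lie at -1.39 for the matrix list, -1.88 for leukocyte markers and 0.69 for protein breakdown.

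The largest increases among named genes included components of ubiquitin ligases, a mitochondrial carrier and a purine enzyme. FBXO32, the muscle-specific substrate receptor of a ubiquitin ligase also called atrogin-1 (chr4:16638140-16674269, Sscrofa10.2), was at 5.21, 17.9 and 7.88 FPKM in the 3 libraries of 120 d and at 86.7, 92.0 and 85.4 FPKM at 400 d. The groups lay far apart, with a log2 change of 3.22 ± 0.43 (SE), 9.31-fold, and an adjusted p of 0.0122 that reached 0.0452 at most when 1 library was left out. FBXO40, another F-box protein of muscle, was at 39.3, 20.2 and 43.0 FPKM at 120 d and at 146.3, 126.9 and 149.4 FPKM at 400 d, 4-fold higher (log2 change 2.0 ± 0.29, adjusted p = 0.0146).

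RABEP2, an effector of Rab GTPases in endosome traffic, was at 2.88, 3.09 and 2.60 FPKM at 120 d and at 18.2, 19.4 and 13.7 FPKM at 400 d. The zinc finger gene ZNF770 was at 0.757, 0.678 and 0.797 against 3.47, 3.34 and 3.49 FPKM. These had the smallest adjusted p of all features (0.00917 each), with log2 changes of 2.58 ± 0.18 and 2.21 ± 0.17, and were the only features with an adjusted p of at most 0.01 and a change over 2-fold in edgeR. AMPD3, which deaminates AMP, was at 0.752, 3.30 and 1.03 FPKM at 120 d and at 5.20, 17.5 and 6.30 FPKM at 400 d. Its change of 7.08-fold rested on wider scatter (log2 change 2.82 ± 0.73, adjusted p = 0.0404) and was called in 1 of the 6 fits that left out a library, with an adjusted p of up to 0.105 without 400 d replicate 2. GALNT15, a glycosyltransferase, had the largest fitted increase (log2 change 3.43 ± 0.90, adjusted p = 0.0422, and 0.105 without 400 d replicate 2), but its FPKM overlapped between the ages, at 0.629, 0.211 and 0.193 against 0.555, 6.62 and 2.29. TEX9 and CCDC160 rose 5.41-fold and 5.15-fold, TEX9 from a mean of 9.92 ± 4.17 to 47.7 ± 5.09 FPKM (SD, n = 3), and CCDC160 lost its call in 4 of the 6 fits without 1 library (adjusted p up to 0.0785, without 400 d replicate 2).

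**Figure D2:**
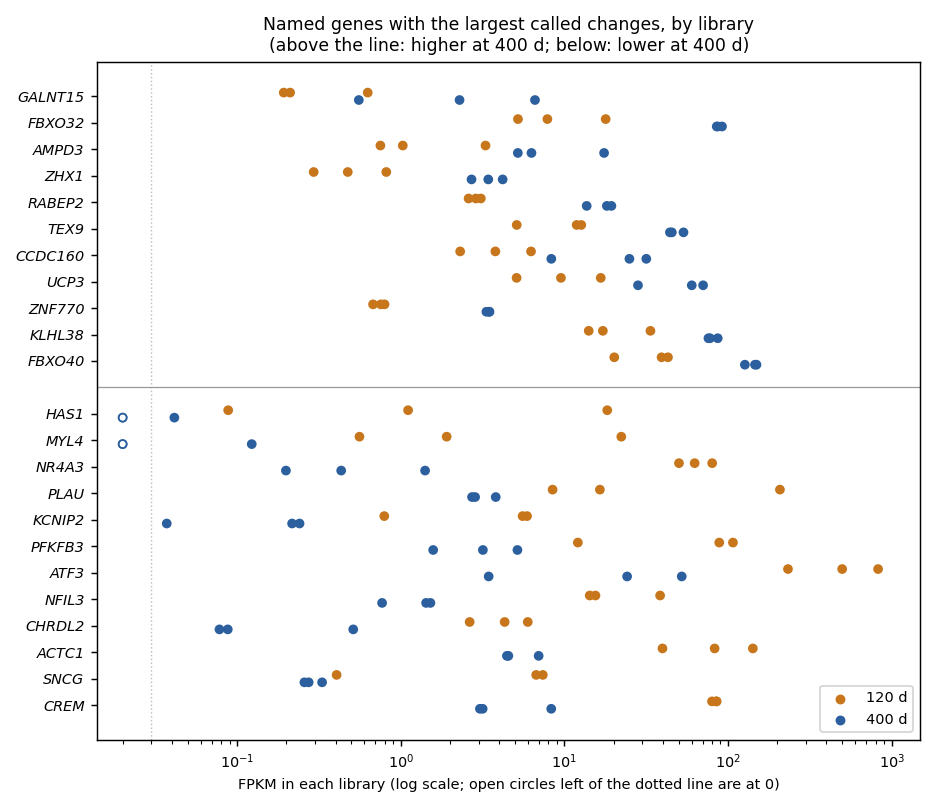
FPKM in each library on a log axis for 11 of the 12 named genes with the largest called increases (above the line) and the 12 with the largest called decreases (below), with 120 d in orange and 400 d in blue. Open circles stand for libraries at 0. Only GALNT15 overlaps between the ages, and PLAU, HAS1 and MYL4 each have 1 library of 120 d far above the other two.

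Neighbouring genes on chromosome 4 made up 3 of the largest increases. KLHL38, a kelch-like protein (chr4:16543622-16546107), FBXO32 and ZHX1, a zinc finger and homeobox factor (chr4:16863454-16866072), all rose. KLHL38 was at 14.1, 33.6 and 17.2 FPKM at 120 d and at 86.6, 77.7 and 76.0 FPKM at 400 d (log2 change 2.01 ± 0.30, adjusted p = 0.0146). ZHX1 was low at both ages, at 0.817, 0.475 and 0.294 against 3.43, 4.2 and 2.71 FPKM (log2 change 2.68 ± 0.36, adjusted p = 0.013). Within 500 kb of either end of FBXO32 lay 13 features, of which 9 were tested and 3 were called, all higher. Over all tested features 6.84% were called higher. The 3 calls are KLHL38, FBXO32 and ZHX1 themselves. They were chosen for their large increases, so a count of at least 3 was set by that choice. The genes between and beside them gave log2 changes of -0.20 ± 0.22 for an unnamed gene and -0.85 ± 0.30 for ATAD2 (adjusted p = 0.0901), which both lie between FBXO32 and ZHX1, and 0.08 ± 0.25 for FAM91A1. The calls of KLHL38, FBXO32 and ZHX1 held in all 6 fits without 1 library. Whether the 3 changes are linked was not tested.

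**Figure D3:**
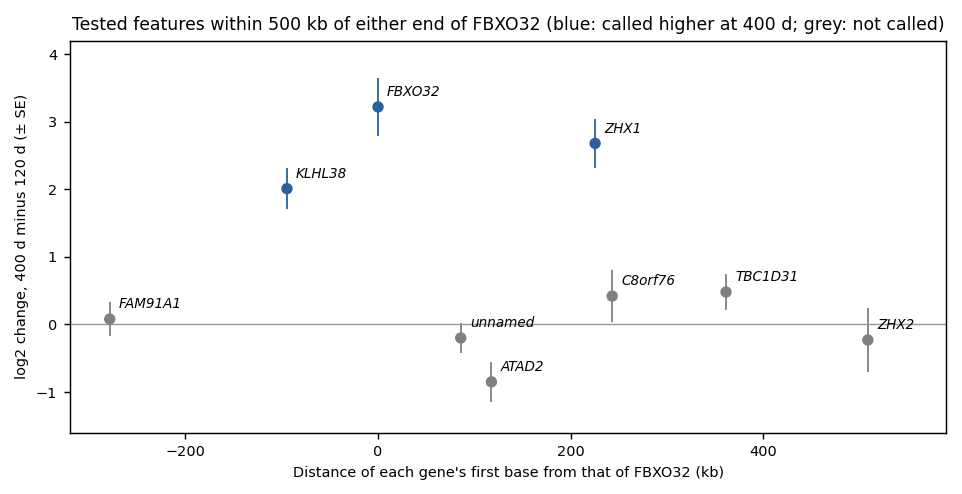
Log2 change (400 d minus 120 d, ± SE) of the 9 tested features around FBXO32, placed by the distance of their first base from that of FBXO32 in kb. KLHL38, FBXO32 and ZHX1 (blue) stand at 2.01, 3.22 and 2.68, and the 6 other features (grey) lie between -0.85 and 0.48.

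Genes of protein breakdown and autophagy moved mostly upward. Of 13 tested, 5 were called higher and 1 lower, with a median log2 change of 0.69. Besides FBXO32, SQSTM1, the autophagy receptor p62, was at 212.5, 209.2 and 156.8 FPKM at 120 d and at 494.5, 1022.5 and 394.2 FPKM at 400 d (log2 change 1.67 ± 0.34, adjusted p = 0.0241). PSMD11, a subunit of the proteasome lid, was at 87.4, 63.3 and 67.7 against 127.5, 171.2 and 135.6 FPKM (log2 change 1.01 ± 0.22, adjusted p = 0.0274). The transcription factor FOXO3 moved by less, from 9.11, 8.90 and 8.61 to 12.8, 15.8 and 14.6 FPKM, with no overlap (log2 change 0.74 ± 0.16, adjusted p = 0.0261), and so did MAP1LC3B, a coat protein of the autophagosome (0.74 ± 0.18, adjusted p = 0.0377). TRIM63, the ubiquitin ligase MuRF1, was not called at 143.8 ± 44.4 against 235.0 ± 80.3 FPKM (adjusted p = 0.124). CTSL, a lysosomal protease, fell from 2.23, 4.42 and 2.12 to 0.372, 0.274 and 0.671 FPKM (log2 change -2.61 ± 0.47, adjusted p = 0.0186). Between 1 and 3 members were called higher with 1 library left out, fewest without 120 d replicate 3, where SQSTM1 had an adjusted p of 0.0631, and CTSL lost its call without 400 d replicate 1 or 2.

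Genes that move fatty acids into mitochondria and oxidise them rose in part. Of 21 tested genes of fatty acid uptake, oxidation and fuel choice, 6 were called, all of them higher, with a median log2 change of 0.45 (DESeq2 called 10 higher). ACSL1, which activates long-chain fatty acids, was at 33.7, 52.5 and 43.6 FPKM at 120 d and at 99.6, 215.4 and 190.0 FPKM at 400 d (log2 change 1.96 ± 0.31, adjusted p = 0.0156). CPT2 and SLC25A20, the transferase and the carrier of the carnitine shuttle, rose 1.89-fold and 1.79-fold (adjusted p = 0.0297 and 0.0425). ACADM, the medium-chain acyl-CoA dehydrogenase, was tight within each age, at 79.0, 88.1 and 76.3 against 159.7, 180.0 and 176.1 FPKM (log2 change 1.09 ± 0.15, adjusted p = 0.0132, 0.046 at most without 1 library). HADHA, the alpha subunit of the trifunctional protein, rose 1.54-fold (adjusted p = 0.0461).

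UCP3, a carrier of the inner mitochondrial membrane that is raised in muscle during fatty acid use, was at 5.11, 16.7 and 9.54 FPKM at 120 d and at 28.2, 70.5 and 60.1 FPKM at 400 d. Its rise was 5.01-fold (log2 change 2.32 ± 0.48, adjusted p = 0.0244, and 0.0717 without 400 d replicate 3). PDK4, the kinase that closes pyruvate dehydrogenase to glucose carbon, had the largest fitted change of the list but was not called. It stood at 4.66, 49.2 and 11.5 FPKM at 120 d and at 42.9, 360.4 and 421.9 FPKM at 400 d, so 400 d replicate 1 lay within the range of 120 d (log2 change 3.66 ± 1.1, adjusted p = 0.0529). Neither CPT1B, the rate-limiting step of the carnitine shuttle, at 28.9 ± 7.27 against 37.9 ± 13.7 FPKM (adjusted p = 0.351), nor ACADL, at 34.2 ± 10.8 against 34.2 ± 6.35 FPKM, was called. Leaving out 1 library left between 1 and 7 of the list called higher, fewest without 400 d replicate 3, when ACSL1 reached an adjusted p of 0.0548.

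**Figure D4:**
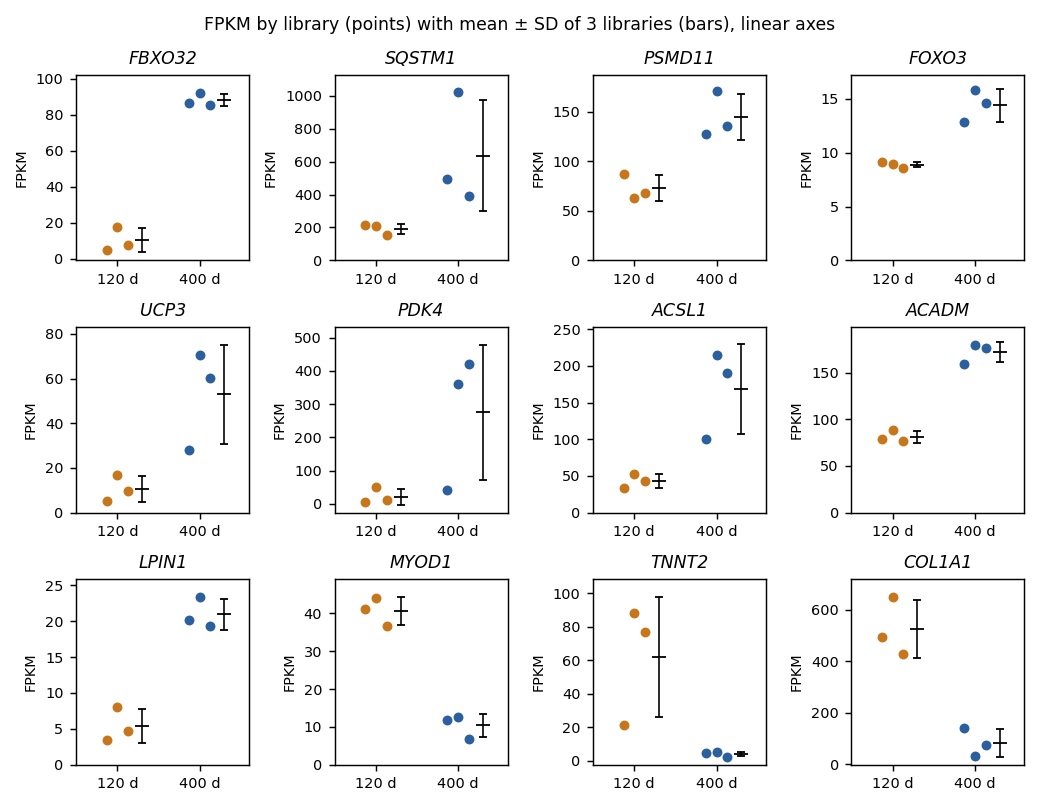
FPKM of 12 genes in each library, 120 d in orange and 400 d in blue, with the mean ± SD of 3 libraries as black bars, on linear axes. FBXO32, ACADM, LPIN1 and FOXO3 do not overlap and are tight at 400 d, PDK4 overlaps because of 1 library of 400 d at 42.9 FPKM, and MYOD1, TNNT2 and COL1A1 are lower at 400 d.

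Genes of fatty acid and triglyceride synthesis moved in both directions, 3 of 15 called higher and 2 lower, with a median log2 change of -0.72. LPIN1, a phosphatidate phosphatase of triglyceride synthesis, was at 3.41, 8.08 and 4.73 FPKM at 120 d and at 20.1, 23.4 and 19.3 FPKM at 400 d (log2 change 1.94 ± 0.30, adjusted p = 0.0151, 0.0492 at most without 1 library). ME1, the malic enzyme that supplies NADPH, was at 3.92, 3.64 and 6.94 against 18.2, 12.6 and 10.3 FPKM (adjusted p = 0.0247). GPAM, which adds the first acyl chain to glycerol 3-phosphate, was at 1.58, 1.46 and 1.27 against 3.51, 2.63 and 7.52 FPKM (adjusted p = 0.0298). ELOVL1 and FADS1, an elongase and a desaturase of long-chain fatty acids, fell 2.17-fold and 2.69-fold (adjusted p = 0.0206 and 0.0483) at levels under 3.1 FPKM. Of these 5 genes only LPIN1 was called in every fit without 1 library. ME1 reached 0.0628 without 400 d replicate 1, GPAM 0.0778 without 120 d replicate 3 and ELOVL1 0.0615 without 400 d replicate 3.

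Neither FASN nor SCD was called. FASN, fatty acid synthase, was at 8.93, 6.05 and 23.8 FPKM at 120 d and at 6.24, 0.656 and 4.54 FPKM at 400 d (log2 change -1.74 ± 0.76, adjusted p = 0.141). SCD, which desaturates stearate to oleate, was at 7.84, 3.68 and 32.0 against 20.8, 1.11 and 5.32 FPKM (log2 change -0.66 ± 1.1, adjusted p = 0.681). In both genes the libraries overlapped, with 120 d replicate 3 highest and 400 d replicate 2 lowest. Of 15 listed fat cell markers 11 were found, and ADIPOQ, FABP4, CIDEA and AQP7 were not, so their levels are not known. Of 10 tested, edgeR called 0, with 1 lower at an unadjusted p under 0.05 (CFD, adipsin, adjusted p = 0.0981) and 1 lower by DESeq2. At that unadjusted p DESeq2 also had 1 marker higher at 400 d. Without 400 d replicate 2 edgeR had 3 markers higher and 1 lower at an unadjusted p under 0.05, with 0 called. The FPKM summed over the 11 found genes ranged from 846.6 to 1155.9 at 120 d and from 685.8 to 1030.7 at 400 d. Most of that sum was GPD1, glycerol 3-phosphate dehydrogenase, which muscle fibres also express, at 751.1 ± 138.6 against 689.2 ± 130.2 FPKM. PPARG, the regulator of adipocyte differentiation, was at 2.88 ± 0.928 against 1.55 ± 0.979 FPKM (adjusted p = 0.247), and PLIN1, the coat protein of the lipid droplet, was at 8.23 ± 3.89 against 10.1 ± 7.95 FPKM (adjusted p = 0.713). LEP, the fat hormone leptin, was low in all 6 libraries, at 0.299, 0.190 and 0 against 0.701, 0.0737 and 2.06 FPKM (adjusted p = 0.208).

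Cholesterol synthesis and uptake genes were called for 9 of 21 tested, all lower at 400 d, with a median log2 change of -0.69. SREBF2, the transcription factor of the pathway, was at 14.3, 9.97 and 12.2 FPKM at 120 d and at 6.65, 3.56 and 5.20 FPKM at 400 d (log2 change -1.23 ± 0.25, adjusted p = 0.0227). INSIG1, which holds the SREBP complex in the endoplasmic reticulum, was at 9.05, 8.23 and 8.26 against 4.48, 3.0 and 2.49 FPKM (adjusted p = 0.018). Along the pathway, the early enzyme HMGCS1 was not called, at 4.91 ± 0.633 against 5.78 ± 0.799 FPKM. SQLE, squalene epoxidase, fell 5.02-fold, and LSS, CYP51A1, HSD17B7 and EBP, which act after it, fell 2.51-fold, 2.24-fold, 3.58-fold and 1.76-fold. TM7SF2, MSMO1, NSDHL, SC5D and DHCR7, which also act after it, were not called (adjusted p = 0.934, 0.079, 0.158, 0.598 and 0.168). FDFT1, which makes squalene, was higher in every library of 400 d (58.5 ± 10.6 against 83.3 ± 12.2 FPKM), as were 19.0% of all tested features, without passing the test (adjusted p = 0.0952). Without 400 d replicate 2, and also without 400 d replicate 3, edgeR called 0 of the list, with 12 and 11 lower at an unadjusted p under 0.05, and the other 4 such fits called up to 7.

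The genes with the largest decreases included inducible transcription factors and genes of matrix, sarcomere and metabolism. NR4A3, an orphan nuclear receptor induced in muscle by exercise, was at 80.1, 62.6 and 50.2 FPKM at 120 d and at 0.199, 1.41 and 0.433 FPKM at 400 d (log2 change -6.39 ± 0.78, 83.6-fold, adjusted p = 0.0117). CREM, a factor that responds to cyclic AMP, was at 79.9, 85.3 and 84.8 against 3.05, 8.32 and 3.17 FPKM (log2 change -3.97 ± 0.39, adjusted p = 0.0109). NFIL3, a basic leucine zipper repressor, was at 14.3, 38.5 and 15.5 against 0.770, 1.52 and 1.43 FPKM (log2 change -4.22 ± 0.48, adjusted p = 0.0117). In all 3 genes the groups were separated widely, and the calls held in every fit without 1 library. ATF3, a stress-induced factor, was at 498.9, 827.1 and 232.7 against 3.45, 52.2 and 24.2 FPKM (log2 change -4.34 ± 0.91, adjusted p = 0.0253, and 0.0815 without 400 d replicate 3).

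Of 18 tested immediate early genes, 6 were called, all lower, with a median log2 change of -1.48. The others called were NR4A1 (588.8, 569.7 and 413.1 against 44.3, 129.2 and 83.2 FPKM, adjusted p = 0.014), IER3 (adjusted p = 0.0117), MYC (adjusted p = 0.038) and KLF6 (adjusted p = 0.0146). FOS and EGR1 were among the members not called. FOS was at 142.3, 341.7 and 66.1 FPKM at 120 d and at 1.66, 266.4 and 213.5 FPKM at 400 d (adjusted p = 0.927). EGR1 was at 15.6, 99.0 and 17.0 against 1.68, 9.85 and 52.8 FPKM (log2 change -1.03 ± 1.1, adjusted p = 0.538). In both genes 400 d replicate 1 was the lowest of the 6 libraries, and without 120 d replicate 2 the change of EGR1 turned to 0.40. Between 3 and 8 members were called lower when 1 library was left out, fewest without 400 d replicate 3. DUSP1, a phosphatase of MAP kinases and the one tested member with a positive change, was at 82.4, 86.8 and 94.0 against 13.3, 256.2 and 256.5 FPKM (log2 change 0.99 ± 0.81, adjusted p = 0.405), and without 400 d replicate 1 it was called higher (log2 change 1.54, adjusted p = 0.0332).

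In HAS1, MYL4 and PLAU 1 library of 120 d carried most of the difference. HAS1, a hyaluronan synthase, had 27, 523 and 3 counts at 120 d and 0, 1 and 0 counts at 400 d, and MYL4, a myosin light chain of embryonic muscle and atrium, had 4, 189 and 13 counts against 0, 0 and 1. The ratio of normalized counts was 611 for HAS1 (95% exact interval 109 to 24200, counting error only) and 228 for MYL4 (40.4 to 9030). PLAU, the urokinase plasminogen activator, was at 16.5, 207.8 and 8.48 FPKM against 2.73, 2.85 and 3.81 FPKM (log2 change -4.63 ± 1.2, adjusted p = 0.0396). Replicate 2 of 120 d was highest in each of them. PFKFB3, a regulator of glycolysis through fructose 2,6-bisphosphate, was at 12.1, 107.3 and 88.5 against 5.17, 3.18 and 1.58 FPKM (adjusted p = 0.02), and the potassium channel partner KCNIP2 was at 0.794, 5.92 and 5.56 against 0.217, 0.0372 and 0.241 FPKM (adjusted p = 0.0196). CHRDL2, a chordin-like antagonist of bone morphogenetic proteins, fell 17.9-fold (adjusted p = 0.0179), and SNCG, a synuclein, 16.3-fold (adjusted p = 0.0321), with 120 d replicate 2 at 0.406 FPKM near the 3 libraries of 400 d. Leaving out 1 library raised the adjusted p of HAS1 to 0.141, of PLAU to 0.113 and of SNCG to 0.0926 (400 d replicate 2 in each), of MYL4 to 0.125 (400 d replicate 3), of PFKFB3 to 0.0649 (400 d replicate 2), and of KCNIP2 and CHRDL2 to 0.0636 and 0.0572 (400 d replicate 3).

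Genes of satellite cells and myogenic differentiation were lower at 400 d. Of 16 tested, 10 were called, all lower, against 8.75% of all features, with a median log2 change of -1.43. MYOD1, the master regulator of myogenic commitment (chr2:44482283-44485063, Sscrofa10.2), was at 41.2, 44.1 and 36.6 FPKM at 120 d and at 11.8, 12.5 and 6.91 FPKM at 400 d, with no overlap and little scatter (log2 change -1.96 ± 0.24, 3.9-fold, adjusted p = 0.0117, 0.0452 at most without 1 library). Its relative MYF5, which acts before MYOD1, was also lower in every library of 400 d, as were 21.8% of all tested features. MYF5 was at 3.16 ± 2.34 against 0.995 ± 0.366 FPKM, without a call (log2 change -1.63 ± 0.50, adjusted p = 0.0629). MYF6, the factor of mature fibres, overlapped at 78.6, 122.3 and 76.0 against 38.5, 186.3 and 100.4 FPKM (adjusted p = 0.761).

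Among surface and signalling molecules of satellite cells, SDC4, a heparan sulphate proteoglycan, was at 20, 33.4 and 15.4 FPKM at 120 d and at 3.82, 3.38 and 8.08 FPKM at 400 d (adjusted p = 0.021). FGFR4, a receptor for fibroblast growth factors, was at 3.66, 5.82 and 5.56 against 2.47, 1.39 and 1.34 FPKM (adjusted p = 0.0253). NFATC2, a calcium-regulated factor of fibre growth by fusion, fell 3.19-fold (adjusted p = 0.0181) and MYMK, the membrane protein that drives myoblast fusion, fell 3.38-fold (adjusted p = 0.0398). The Notch ligand DLL1, the Notch target HES1, CDH15, MEGF10 and ID2 fell between 1.58-fold and 2.93-fold. Leaving out 1 library left between 2 and 7 of the list called lower, fewest without 400 d replicate 2 or 3.

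Of 9 tested genes of the embryonic and cardiac sarcomere and of the synapse, edgeR called 3, all lower, with a median log2 change of -1.04. DESeq2 called 4 lower and 1 higher. The FPKM summed over the list went the other way, from 4082.0 to 5845.6 at 120 d and from 6960.0 to 7336.2 at 400 d, since MYH8 made up most of it. TNNT2, the cardiac and embryonic troponin T, was at 21.3, 88.0 and 76.6 FPKM at 120 d and at 4.72, 5.15 and 2.42 FPKM at 400 d (log2 change -3.63 ± 0.58, 12.3-fold, adjusted p = 0.0155, and 0.0548 without 400 d replicate 3). ACTC1, cardiac actin, was at 39.8, 142.0 and 82.9 against 6.97, 4.46 and 4.55 FPKM (log2 change -4.04 ± 0.48, adjusted p = 0.0117). ACTC1 is nearly identical to ACTA1, whose counts were 0 in 4 of the libraries, so its level is uncertain. MYL4, described above, was the other call. Embryonic myosin MYH3 was at 11.9 ± 5.52 against 5.20 ± 2.04 FPKM (adjusted p = 0.0675), MYH8, which lies among near-identical myosin genes and is uncertain for that reason, was at 4895.2 ± 974.8 against 7147.8 ± 192.3 FPKM (adjusted p = 0.174), and the receptor and synapse genes CHRNA1, CHRNE, MUSK and NCAM1 all overlapped between the ages.

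No tested gene of adult fibre type was called. The adult myosin heavy chains MYH1, MYH2, MYH4 and MYH7 were not found under those symbols, so their levels are not known. Of 14 listed slow fibre genes 7 were found and tested, and of 15 listed fast fibre genes 9. Of these 7 and 9 genes edgeR called 0, with median log2 changes of 0.48 and -0.12. At an unadjusted p under 0.05 there was 1 slow fibre gene, CASQ2 (14.1 ± 12.0 against 3.51 ± 1.97 FPKM, adjusted p = 0.078), which DESeq2 called lower, and 0 fast fibre genes by either tool. At that unadjusted p DESeq2 also had 3 slow fibre genes higher at 400 d, as did edgeR without 400 d replicate 2. Without 120 d replicate 1 edgeR called the slow fibre gene CSRP3 higher (log2 change 2.64, adjusted p = 0.0267), and without 120 d replicate 3 it called the fast fibre gene PRKAG3 higher (log2 change 1.15, adjusted p = 0.0441). MYL3, the slow myosin light chain, was at 1476.8, 1267.3 and 847.4 FPKM at 120 d and at 1841.7, 1437.6 and 2282.9 FPKM at 400 d (log2 change 0.61 ± 0.27, adjusted p = 0.139). TNNT1 and TNNI1, slow troponins, had similar values (0.49 ± 0.25 and 0.48 ± 0.25, adjusted p = 0.198 and 0.195). MYL1, a fast light chain, was at 12285.8 ± 2727.7 against 9551.7 ± 1720.4 FPKM (log2 change -0.38 ± 0.27, adjusted p = 0.332). PVALB, the calcium buffer of fast fibres, spread from 10.6 to 103.8 FPKM at 120 d and from 3.34 to 30.0 FPKM at 400 d (adjusted p = 0.229).

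Of 14 genes of glycogen use and glycolysis, 1 was called higher and 1 lower, with a median log2 change of -0.14. The share called by edgeR was 14.3%, near the 15.6% of all tested features. DESeq2 called 1 of the 14 higher and 4 lower, where it called 1248 higher and 1697 lower of all 12989 features. PHKA1, a regulatory subunit of phosphorylase kinase, was at 78.1, 66.3 and 113.9 FPKM at 120 d and at 160.8, 223.1 and 173.7 FPKM at 400 d (log2 change 1.11 ± 0.25, adjusted p = 0.0298, and 0.0869 without 400 d replicate 2). PGAM2, muscle phosphoglycerate mutase, was at 7725.5, 5931.1 and 8611.0 against 4138.5, 4575.1 and 3339.9 FPKM (log2 change -0.89 ± 0.24, adjusted p = 0.0428, and 0.114 without 400 d replicate 3). ENO3, muscle enolase, and GAPDH did not overlap between the ages either, at 14096.1 ± 1057.5 against 8635.2 ± 1153.2 FPKM and 43411.4 ± 7146.1 against 30638.4 ± 2223.6 FPKM, but were not called (adjusted p = 0.075 and 0.187). Of all tested features 21.8% were lower in every library of 400 d. In the citrate cycle and respiratory chain 1 of 17 was called, NDUFS1, a subunit of complex I, from 52.7, 42.2 and 46.6 to 77.0, 74.1 and 92.4 FPKM (log2 change 0.78 ± 0.17, adjusted p = 0.0274, and 0.0762 without 400 d replicate 3). Fitted changes were above 0 for 15 of these 17 genes and their median was 0.26.

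Connective tissue genes were lower at 400 d as a group. Of 21 tested fibroblast and matrix genes 13 were called, all lower, with a median log2 change of -1.39. The FPKM of all 21 was lower in every library of 400 d than in any of 120 d, as it was for 21.8% of all tested features. COL1A1, the main chain of type I collagen, was at 494.5, 647.5 and 428.6 FPKM at 120 d and at 141.4, 33.4 and 74.5 FPKM at 400 d (log2 change -2.65 ± 0.49, 6.27-fold, adjusted p = 0.0194, and 0.0692 without 400 d replicate 3). COL3A1, the collagen of fine fibrils, was at 523.5, 807.1 and 633.8 against 249.2, 83.5 and 152.1 FPKM (log2 change -2.01 ± 0.40, adjusted p = 0.0227). SPARC, a collagen-binding glycoprotein, was at 315.2, 426.8 and 264.0 against 127.3, 58.2 and 94.4 FPKM (log2 change -1.83 ± 0.31, adjusted p = 0.017). In each of the 3 genes 400 d replicate 2 was lowest and 120 d replicate 2 highest. COL5A1, which starts fibril assembly, and the cross-linking enzyme LOX fell 3.66-fold and 2.47-fold, and the small proteoglycan DCN fell 1.89-fold (adjusted p = 0.0416). POSTN, COL6A1, FN1 and LUM were among the 8 not called (adjusted p = 0.0589, 0.0595, 0.096 and 0.0855). Between 1 and 8 members were called lower with 1 library left out, 1 of them without 400 d replicate 3, and 11 were called with both outlying libraries left out.

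Markers of other cell types of muscle were also lower at 400 d where edgeR called them. Leukocyte markers were called for 5 of 13, all lower, with a median log2 change of -1.88. TYROBP, an adaptor of myeloid receptors, was at 16.7, 43.5 and 23.2 FPKM at 120 d and at 5.47, 2.50 and 8.02 FPKM at 400 d (log2 change -2.38 ± 0.47, adjusted p = 0.0221, and 0.0612 without 400 d replicate 1). CD14, MRC1, CSF1R and ITGB2, all of myeloid cells, were the other calls, and the T cell gene CD3E was at 1.57, 7.96 and 1.64 against 1.25, 0.294 and 0.720 FPKM (adjusted p = 0.079). FPKM summed over the 13 genes was 224.9 in 120 d replicate 2 against 69.3 in the lowest library of that age, and 11.9 to 43.0 at 400 d. Up to 3 of the 13 were called lower with 1 library left out, and edgeR called 0 without any single one of the 3 libraries of 400 d, with 9 to 11 lower at an unadjusted p under 0.05. The part of these cells in the falls of matrix, interferon-stimulated and immediate early genes was not tested.

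Endothelial markers were called for 4 of 10, all lower, with a median log2 change of -0.85. ROBO4, a guidance receptor of vessels, was at 8.42, 10.4 and 6.84 against 3.46, 2.20 and 3.60 FPKM (adjusted p = 0.0161). EGFL7, a factor secreted by endothelium, was at 39.8, 36.8 and 30.3 against 19.4, 17.3 and 15.7 FPKM (adjusted p = 0.0155). KDR and TIE1, receptor kinases, were the other calls (adjusted p = 0.0477 and 0.045), whereas PECAM1 was at 54.1 ± 10.9 against 30.5 ± 7.44 FPKM without a call (adjusted p = 0.0797) and FLT1 was at 4.89 ± 1.74 against 4.66 ± 0.281 FPKM. Without 400 d replicate 3 edgeR called 0 endothelial markers, with 6 lower at an unadjusted p under 0.05. Of 5 smooth muscle markers 2 were called, CNN1 and TAGLN, which fell 3.71-fold and 1.75-fold and were called in 3 and 0 of the 6 fits without 1 library (adjusted p up to 0.0661 and 0.0681). SYNPO2 was higher in every library of 400 d, at 155.1 ± 42.8 against 236.5 ± 8.24 FPKM (adjusted p = 0.0973 by edgeR and 0.036 by DESeq2, which called it). ACTA2 was at 85.1 ± 13.9 against 67.6 ± 15 FPKM and MYH11 at 2.48 ± 1.03 against 3.15 ± 0.733 FPKM. MBP of myelin fell 1.95-fold (adjusted p = 0.0368, and 0.0799 without 120 d replicate 3) as the only call among 3 nerve and Schwann cell markers, and of 2 blood cell markers HBB was at 128.4 ± 93.0 against 81.0 ± 21.9 FPKM (adjusted p = 0.434), and neither of them was called by edgeR or DESeq2 or had an unadjusted p under 0.05.

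**Figure D5:**
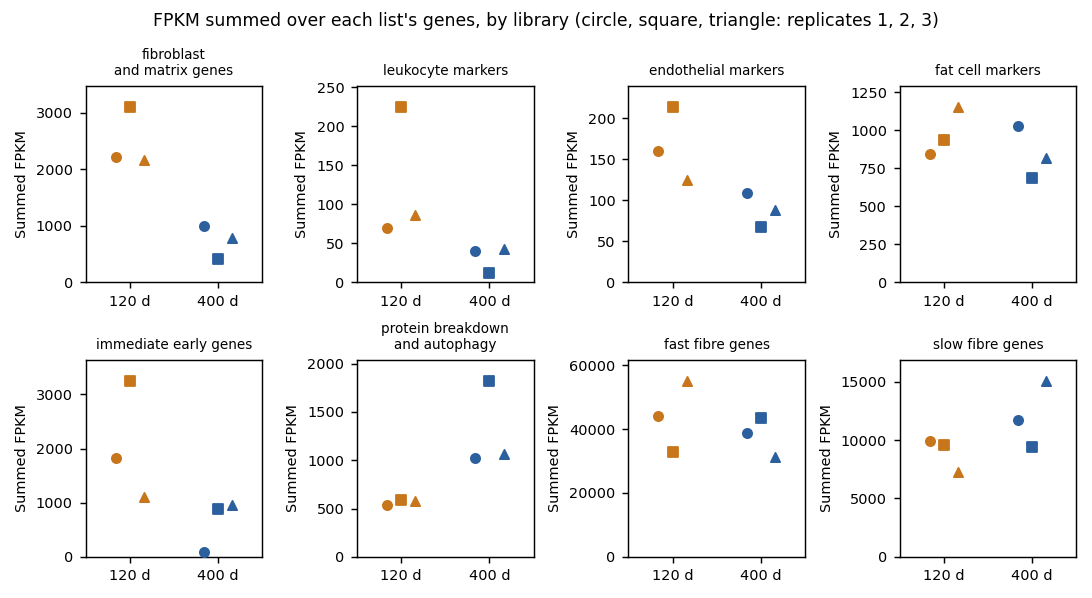
FPKM summed over the genes of 8 lists in each library, 120 d in orange and 400 d in blue, with circle, square and triangle for replicates 1, 2 and 3, on linear axes from 0. Matrix genes ran from 2175.4 to 3108.3 at 120 d and from 407.9 to 990.9 at 400 d without overlap. The sums of protein breakdown genes did not overlap either, in the other direction. Their largest member was SQSTM1, at 192.8 ± 31.3 against 637.1 ± 337.6 FPKM. Fat cell markers and both fibre lists overlapped.

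Interferon-stimulated genes were called for 4 of 9, all lower. MX1, an antiviral GTPase, was at 4.97, 30.4 and 12.7 FPKM at 120 d and at 3.06, 1.43 and 3.46 FPKM at 400 d (log2 change -2.60 ± 0.63, adjusted p = 0.0355). MX2, IRF7 and USP18 were the other calls (adjusted p = 0.0351, 0.0297 and 0.0493), and the median log2 change was -1.38. As for the leukocyte markers, 120 d replicate 2 held the highest value of MX1 and IRF7, and edgeR called 0 of the list without any 1 of the 3 libraries of 400 d, with 4 to 6 lower at an unadjusted p under 0.05.

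Heat shock genes were called lower for 4 of 11, and these were mostly co-chaperones. DNAJB1 and DNAJA1, which hand clients to HSP70, were at 98.5, 50.9 and 77.6 against 8.85, 11.2 and 15.3 FPKM and at 109.5, 80.5 and 90.5 against 31.8, 34.6 and 24.1 FPKM. Both had an adjusted p of 0.0117 that reached 0.0452 at most without 1 library. HSPH1, a nucleotide exchange factor of HSP70, fell 3.3-fold (adjusted p = 0.0227) and HSPA5, the chaperone of the endoplasmic reticulum, 1.5-fold (adjusted p = 0.033). The abundant chaperones HSPA8, HSP90AA1 and HSP90AB1 overlapped between the ages, at 87.9 ± 23 against 67.7 ± 4.87, 334.1 ± 149.1 against 301.0 ± 91.6 and 116.4 ± 20.2 against 104.6 ± 5.37 FPKM. From 2 to 4 of the list were called with 1 library left out, 2 of them without 120 d replicate 3, 400 d replicate 1 or 400 d replicate 3.

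Clock genes split in direction, 3 of 14 called higher and 2 lower, with a median log2 change of -0.14. RORA and NR1D2, nuclear receptors that activate and repress the BMAL1 gene, were at 5.52, 5.68 and 4.88 against 9.51, 12.5 and 9.21 FPKM and at 28.5, 30.5 and 28.8 against 54.4, 44.9 and 46.1 FPKM (adjusted p = 0.0186 and 0.0261). BHLHE41, a repressor of the clock, rose from 2.89, 2.96 and 4.14 to 12.8, 12.4 and 5.33 FPKM (adjusted p = 0.0257, and 0.0717 without 400 d replicate 2). CRY2 and PER1, of the negative limb, were at 55.9, 46.5 and 56.6 against 21.1, 24.9 and 28.8 FPKM and at 64.8, 65.9 and 51.9 against 22, 26.9 and 45.3 FPKM (adjusted p = 0.0159 and 0.0472). RORA alone was called in every fit without 1 library, and NR1D2 and CRY2 reached 0.077 without 400 d replicate 1 and 0.0507 without 400 d replicate 2. The core factors CLOCK and BMAL1 (listed under ARNTL) were at 1.5 ± 0.246 against 2.20 ± 0.588 FPKM and 3.42 ± 0.560 against 1.82 ± 0.936 FPKM and were not called.

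In insulin and IGF signalling 3 of 13 were called, all lower and all of them binding proteins. IGFBP6 was at 103.7, 62.7 and 49.4 FPKM at 120 d and at 24.6, 13.7 and 23.8 FPKM at 400 d (adjusted p = 0.0193), IGFBP4 fell 2.77-fold (adjusted p = 0.0247) and IGFBP7 2.02-fold (adjusted p = 0.0388). IGF1 was at 4.27, 9.43 and 7.15 against 4.24, 1.87 and 3.01 FPKM (adjusted p = 0.0674). The insulin receptor INSR and the glucose carrier SLC2A4 were at 1.95 ± 0.338 against 2.81 ± 0.308 FPKM and 5.32 ± 1.63 against 6.53 ± 1.88 FPKM, not called, and IGF2 and IGF1R were listed at 0 in all 6 libraries. Without 400 d replicate 3 edgeR called 0 of the list, with 4 lower at an unadjusted p under 0.05. In the cell cycle the replication licensing genes MCM2 and MCM4 fell 2.83-fold and 2.85-fold (adjusted p = 0.0286 and 0.0378) as 2 calls of 9, from means of 1.37 and 1.83 FPKM, and both lost their call in at least 4 of the 6 fits without 1 library, with adjusted p of 0.0847 and 0.0995 without 400 d replicate 3.

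Of 1115 tested features that the authors assembled outside the annotation, 55 (4.93%) were called higher and 66 (5.92%) lower, both below the shares of 6.84% and 8.75% over all tested features. The feature pig_newGene_125 (chr1:214305792-214916853) was at 0.184, 0.142 and 0.273 FPKM at 120 d and at 1.19, 1.6 and 1.30 FPKM at 400 d (log2 change 2.76 ± 0.27, adjusted p = 0.0109). On chromosome 14, pig_newGene_1061 (chr14:47943782-47957759) was at 8.06, 1.85 and 4.88 against 18.4, 30.3 and 26.9 FPKM (adjusted p = 0.0233, and 0.0657 without 400 d replicate 3). The largest decrease was that of pig_newGene_2892 (chr8:4088354-4093567), at 2.08, 1.82 and 2.77 against 0.304, 0.535 and 0.157 FPKM (log2 change -2.74 ± 0.43, adjusted p = 0.0153).

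At the ages not compared here, mean FPKM of the genes with the largest increases lay nearer to 400 d than to 120 d at 240 d for 9 of 12 on the linear scale and for 12 of 12 on the log2 scale, and at 60 d for 1 and 2 of 12. FBXO32 averaged 23.4 FPKM at 60 d and 140.5 FPKM at 240 d, and UCP3 23.7 and 113.4 FPKM. For the genes with the largest decreases the answer depended on the scale, with 12 of 12 nearer to 400 d at 240 d on the linear scale and 5 of 12 on the log2 scale, and 9 and 3 of 12 at 60 d. Mean FPKM of 10 of these 12 was highest at 120 d among the 4 ages, which is partly set by their choice for high values at 120 d. NR4A3 averaged 15.2 FPKM at 60 d, 64.3 FPKM at 120 d and 29.1 FPKM at 240 d, and ACTC1, which differed from that order, averaged 172.7, 88.2 and 38.2 FPKM. Outside these 12, MYOD1 averaged 57.8 FPKM at 60 d and 7.48 FPKM at 240 d, and COL1A1 775.5 and 183.0 FPKM. These means were not tested. Both sets of 12 genes were chosen by their difference between these libraries of 120 d and 400 d. Where the other ages lie beside them is therefore partly set by that choice.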

How the data were processed

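LD muscle RNA of castrated male Laiwu pigs was sequenced by the authors from unpooled libraries, 3 per age. Per the study's methods, clean reads were mapped to Sscrofa10.2 with TopHat2 and expression was estimated with Cufflinks. The submitters' processing notes name Bowtie 0.12.2 and a mouse build, which the pig loci contradict, and whether counting used strand is not given in the sources used here. The authors deposited raw counts per gene and library, as whole numbers, and FPKM values. The 12 normalized count columns were not used.

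Counts were tested with edgeR 4.0.16 in R 4.3.3 (TMM, quasi-likelihood, mean of at least 10 counts at either age, Benjamini-Hochberg adjusted p of at most 0.05) over the 6 libraries. FPKM gave the levels. DESeq2 1.42.0 and limma 3.58.1 on log2(FPKM + 0.1) served as alternatives. On counts simulated for this comparison over 12824 features, with 1 dispersion for all genes and no outlying library, edgeR recovered 94% of 100 log2 changes of 2. The changed genes were drawn from features averaging at least 50 counts, so recovery at lower counts was not tested. The floor of detection was 3 counts.

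Of 22658 features 11933 had a symbol, 11472 by a reference table (assembly Sscrofa11.1, used for names only) and 461 by the study's lists. The rule named up to 12 called genes per direction with a mean of at least 50 counts at the higher age and CPM that did not overlap between the ages, up to 3 newly assembled features per direction, up to 4 members of each list with the smallest p, and preset genes. Further members were named to complete a list and were chosen after their values were seen. Of 382 listed symbols 294 were found. The comparison and the lists were chosen with earlier results of these data known. Sequences were not used here, and the values of some genes that the rule or lists held are not reported here.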

Additional observations from a re-analysis of the deposited data

How the results depend on the processing

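The numbers of features higher and lower at 400 d stayed within 1.5 times the main counts of 888 and 1137 with DESeq2 (1248 and 1697), DESeq2's size factors, no count filter, a mean of at least 50 counts, all 12 libraries in 1 fit, and ACTA1 left out (895 and 1121, chosen after seeing the data). Higher features numbered 553 with library totals only, and 485 and 494 with limma on log2(FPKM + 0.1) and log2(FPKM + 1). Without 1 library they ranged from 109 to 410 and lower features from 174 to 598, and with both outlying libraries left out (chosen after seeing the data) they were 277 and 510, fits with fewer samples. At an adjusted p of at most 0.01 and a change of at least 2-fold edgeR called 2 higher and 0 lower, where DESeq2 called 239 and 812 and 4675 features had an unadjusted p under 0.05. With the ages of the study's gene list every sign turns by construction, without a new fit, and the counts of 888 and 1137 change places. The median log2 change of the 12 largest increases becomes -2.40, and the median log2 change of the 12 largest decreases becomes 4.39. Of 118 named features 87 were called. Of these, 87 were called with DESeq2, 73 and 70 with limma, 83 with library totals only, 30 to 64 without 1 library (30 without 400 d replicate 3) and 23 in all 6 such fits, and no called one changed sign in edgeR or DESeq2. With 3 libraries per age an exact permutation test of a single value cannot go below p = 0.1. No paired analysis was possible because the libraries carry no numbers that link pigs across ages.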
